A study of Mus musculus with 16 samples.

Results

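The 39 genes described here copy DNA and supply its building blocks. They were chosen by gene name among the probes of a mouse expression array, and 38 of them entered the 22736 genes tested. The exception, Ccne2 (cyclin E2), was not well above background on any of the 16 arrays. Orc1 was well above background on 14 arrays and the other 37 genes on all 16, and no probe was saturated. By role the measured genes were 6 subunits of the MCM helicase, 4 of its partners, 4 origin licensing factors, 6 polymerase and primase subunits, 4 genes of the sliding clamp and its loader, 3 for Okazaki fragment joining and single-strand binding, 5 for nucleotide synthesis, 2 regulators of entry into S phase and 4 for chromatin replication and histone supply.

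A cell that is about to divide first marks its replication origins: the origin recognition complex, Cdc6 and Cdt1 load the ring-shaped MCM helicase onto DNA. At the start of S phase the ring is joined by Cdc45 and the GINS complex and begins to unwind DNA, and polymerases alpha, delta and epsilon copy the strands while ribonucleotide reductase and thymidylate synthase supply deoxynucleotides. Many of these genes are switched on together by E2F transcription factors, and resting B cells of the spleen, which are outside the cell cycle, are known to hold little of their RNA until they are stimulated.

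The cells were splenic B cells purified with beads against B220, a surface protein of B cells, and total RNA was measured on 16 single-colour (Cy3) Agilent arrays. The 3'RR-deficient mice lack the 3' regulatory region, a group of enhancers at the end of the immunoglobulin heavy chain (IgH) locus; in their labels a 129 IgH allele is knocked out on a BALBC background, and the strain entry is BALBC. For wild-type mice that entry is 129, so genotype and strain entry cannot be told apart. There were 4 arrays of each genotype on each of 2 slides: deficient samples 9 to 12 and wild-type samples 2, 5, 6 and 8 on slide 1, and deficient samples 1 to 4 and wild-type samples 1, 2, 3 and 5 on slide 2. Each genotype filled its own row of a slide, and the rows were exchanged between slides. Within a slide, genotype and row therefore cannot be told apart. The labels give no treatment, culture, age or time for any sample, and the same RNA amount (0.2 microgram) and RIN number (9) for all. The labels do not state that arrays come from separate animals (the design text counts 4 per genotype), and p-values describe the spread among these samples only, part of which may be technical. The Y-chromosome gene Ddx3y was well above background on deficient arrays 11 and 12 and wild-type arrays 6 and 8 of slide 1. On slide 2 it was so on deficient arrays 2 and 3 and on all wild-type arrays. Whether this goes with any difference below was not tested. Arrays of slide 1 had 26065 to 29250 probes above background and arrays of slide 2 had 29961 to 34193; precision is limited by the number of arrays. Across genes, which are not independent replicates, arrays of 1 group correlated with Pearson's r from 0.981 to 0.997, genotypes on 1 slide from 0.971 to 0.987 and slides from 0.89 to 0.916.

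Promoter sequence does not depend on any measured value, though the genes were chosen with earlier results of these data known. RefSeq (GRCm38.p6) gave a window of 300 bases, 250 before and 50 after the start, for 33 of the 39 genes. The E2F letters TTTCCCGC, TTTCGCGC, TTTGCCGC or TTTGGCGC, on either strand, were in a window of 12 of these 33 genes (36.4%), against 704 of all 27025 genes with a window (2.6%). The letters CCAAT, on either strand, were in 19 of the 33 (57.6%), against 41.1% of all genes. The 150 bases before the start are printed for the 4 genes that have all their E2F matches there, 5' to 3' on the gene's strand, with the matches in capitals. In Mcm6 (chr1:128359706-128359855, minus strand) a pair of matches overlaps and a further match lies nearer the start. Orc1 (chr4:108579304-108579453, plus strand) has 1 match close to the start, and Cdc6 (chr11:98908001-98908150, plus strand) and Pola1 (chrX:93632156-93632305, minus strand) have 1 each near the far end.
Mcm6: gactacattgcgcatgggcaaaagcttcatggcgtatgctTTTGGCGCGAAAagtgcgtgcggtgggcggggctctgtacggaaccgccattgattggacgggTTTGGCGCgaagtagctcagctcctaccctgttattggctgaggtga
Orc1: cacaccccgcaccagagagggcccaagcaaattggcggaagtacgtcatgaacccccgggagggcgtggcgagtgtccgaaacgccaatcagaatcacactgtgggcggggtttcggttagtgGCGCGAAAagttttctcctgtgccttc
Cdc6: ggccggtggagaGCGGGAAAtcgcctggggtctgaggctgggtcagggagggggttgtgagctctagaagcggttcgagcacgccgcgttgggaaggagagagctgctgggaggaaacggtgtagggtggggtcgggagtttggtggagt
Pola1: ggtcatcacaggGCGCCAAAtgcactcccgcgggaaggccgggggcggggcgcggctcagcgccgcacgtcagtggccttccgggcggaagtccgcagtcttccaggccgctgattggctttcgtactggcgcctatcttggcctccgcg
A match describes letters alone and was not tested as a binding site.

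Almost all of these genes were far higher on slide 2 than on slide 1, in both genotypes. In wild-type cells 36 of 38 were higher on slide 2 and 1 was lower (limma, adjusted p under 0.05), where 48.7% of all genes tested were higher and 25.2% lower. In deficient cells 37 of 38 were higher and none was lower, where 50.5% of all genes were higher and 25.6% lower (none either at an unadjusted p under 0.05). With such backgrounds the size says more than the count: the median log2 difference of the 38 genes was 2.13 in wild-type and 2.09 in deficient cells, against 0.35 and 0.40 over all genes, which left 1.78 and 1.69 relative to the median gene. Of the 38 genes, 25 in wild-type and 26 in deficient cells lay above the upper decile of all genes, a log2 difference of 1.88 and 1.87. The slide comparison takes in everything that differed between the sets of samples, such as the mice, the preparation and the hybridization, and these cannot be told apart. Scaled by the median of all probes, higher genes made up 47.7% of all calls in wild type and 53.9% in deficient cells, against 65.9% and 66.4% here, and the members' medians were 1.75 and 1.80.

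**Figure D1:**
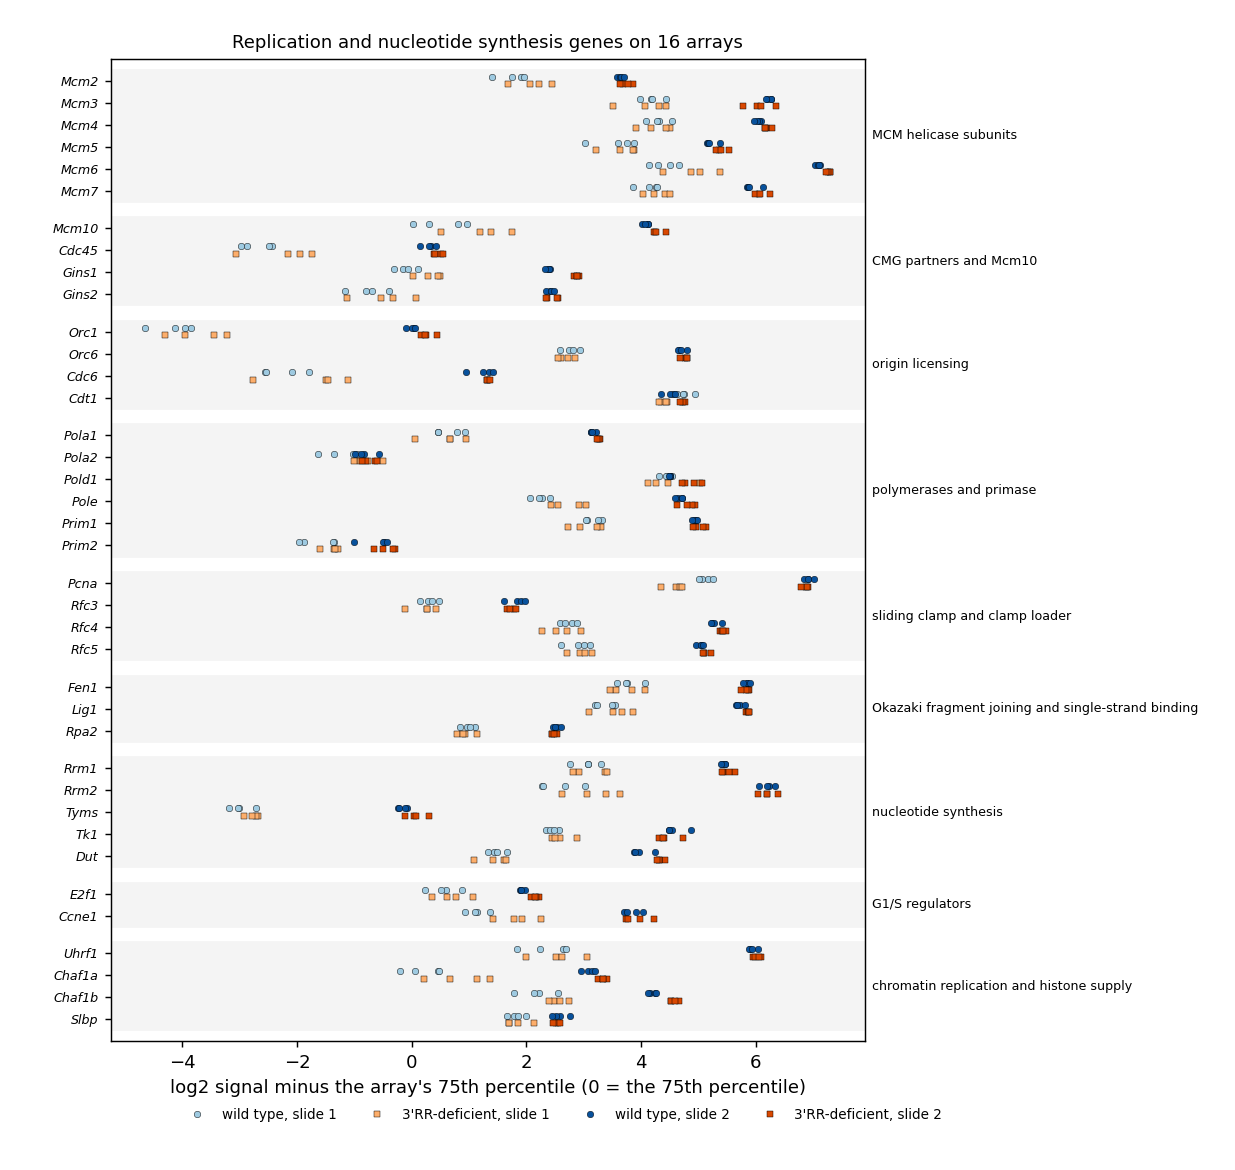
Each point is 1 array; the horizontal axis is the log2 signal minus the array's 75th percentile, so that 0 is the 75th percentile, and genes are grouped by role. Points of slide 2 (dark) lie to the right of those of slide 1 (pale) for nearly all genes, while the deficient (squares) and wild-type (circles) arrays of a slide lie close together; Cdt1, Pola2 and Pold1 are the genes with overlapping slides.

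Coordinates are those of the probes in mm9, as the file headers give them, and no gene annotation of that build was used here. Values are log2 signals relative to the 75th percentile of the same array, and each gene is read on its own probe, so levels of different genes are not compared. Orc1, the large subunit of the origin recognition complex (probe on chromosome 4, 108284772 to 108285679 in mm9), had the largest slide difference. On slide 1 it stood at -4.64, -4.12, -3.84 and -3.95 on wild-type arrays 2, 5, 6 and 8 and at -3.95, -3.44, -4.29 and -3.22 on deficient arrays 9, 10, 11 and 12, with 3 of 4 arrays of each genotype well above background. On slide 2 it stood at 0.04, 0.01, 0.06 and -0.09 on wild-type arrays 1, 2, 3 and 5 and at 0.44, 0.25, 0.16 and 0.23 on deficient arrays 1 to 4. Every array of slide 2 was above every array of slide 1. The difference was 4.14 (SE 0.21, adjusted p 4.11e-10; 17.7-fold) in wild-type and 4.00 (SE 0.21, adjusted p 4.71e-10; 15.9-fold) in deficient cells. The other licensing factors were not uniform. Cdc6, the loader that ORC recruits (chromosome 11, 98782986 to 98783045), lay between -2.55 and -1.80 on wild-type and between -2.76 and -1.10 on deficient arrays of slide 1, and between 0.94 and 1.42 and between 1.31 and 1.36 on those of slide 2. The slides did not overlap, and the difference was 3.49 (SE 0.28, adjusted p 5.14e-08) in wild-type and 3.03 (SE 0.28, adjusted p 1.95e-07) in deficient cells. Orc6, the smallest ORC subunit, differed by 1.92 and 2.08.

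Cdt1, which works beside Cdc6 in loading the helicase and is known to be destroyed as protein once S phase begins, did not share this shift. It stood at 4.94, 4.74, 4.72 and 4.62 on wild-type arrays 2, 5, 6 and 8 of slide 1 and at 4.56, 4.50, 4.59 and 4.35 on wild-type arrays 1, 2, 3 and 5 of slide 2. The wild-type values of slide 2 were thus all below those of slide 1, with a log2 difference of -0.26 (SE 0.08, adjusted p 0.00836). In deficient cells it went the other way, from 4.34, 4.31, 4.45 and 4.43 on arrays 9 to 12 of slide 1 to 4.71, 4.77, 4.73 and 4.68 on arrays 1 to 4 of slide 2, a difference of 0.34 (SE 0.08, adjusted p 0.00114). The median gene differed by 0.40 in deficient cells, and with quantile normalization Cdt1 differed by -0.16 there (adjusted p 0.137).

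The helicase itself was higher on slide 2 in every subunit. The 6 MCM subunits had a median difference of 1.84 in wild-type and 1.87 in deficient cells, from 1.66 (Mcm5) to 2.69 (Mcm6) in wild type and from 1.63 (Mcm2) to 2.36 (Mcm6) in deficient cells. Partners of the ring differed more in size: Cdc45, the 2 GINS subunits measured and Mcm10, a factor needed to start unwinding, had medians of 3.09 and 2.80. Mcm10 (chromosome 2, 4911785 to 4911844) lay at 0.02, 0.96, 0.81 and 0.30 on the wild-type and at 1.18, 1.75, 0.52 and 1.38 on the deficient arrays of slide 1, in the order of numbers given above. Its slide 2 values were 4.12, 4.02, 4.12 and 4.07 on the wild-type and 4.43, 4.24, 4.23 and 4.26 on the deficient arrays. These groups did not overlap between slides, and the difference was 3.56 (SE 0.23, adjusted p 5.18e-09; 11.8-fold) in wild-type and 3.08 (SE 0.23, adjusted p 1.88e-08; 8.48-fold) in deficient cells. Gins2 (chromosome 8, 123112627 to 123112686) was between -1.17 and -0.40 on wild-type and between -1.14 and 0.08 on deficient arrays of slide 1, and between 2.34 and 2.48 and between 2.34 and 2.55 on slide 2. It differed by 3.18 (SE 0.21) and 2.92 (SE 0.21), with adjusted p 5.23e-09 and 1.03e-08, and Gins1 and Cdc45 by 2.48 and 3.00 in wild-type and 2.56 and 2.68 in deficient cells.

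Genes of nucleotide supply were all higher on slide 2, with a median difference of 2.52 in wild-type and 2.85 in deficient cells. Rrm2, the subunit of ribonucleotide reductase that is made in S phase (chromosome 12, 25398824 to 25398883), stood at 2.27, 2.68, 3.03 and 2.28 on wild-type and at 3.06, 3.62, 2.62 and 3.39 on deficient arrays of slide 1. Slide 2 gave 6.23, 6.06, 6.19 and 6.33 on wild-type and 6.38, 6.19, 6.03 and 6.19 on deficient arrays. The slides lay far apart, with differences of 3.64 (SE 0.20, adjusted p 1.05e-09; 12.5-fold) and 3.03 (SE 0.20, adjusted p 5.57e-09; 8.15-fold). Its partner Rrm1, the large subunit, differed by 2.38 and 2.37. Tyms, which makes thymidylate, differed by 2.82 and 2.85, Tk1, the salvage kinase for thymidine, by 2.14 and 1.85, and Dut, which keeps uracil out of DNA, by 2.52 and 2.89. Other probes of Tk1 gave 1.65 and 1.32, and 3.55 and 3.14 on a probe well above background on 8 arrays.

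Polymerase subunits were not uniform either. Pola1, the catalytic subunit of polymerase alpha, differed by 2.49 and 2.67 between slides in wild-type and deficient cells, and Pole, the catalytic subunit of polymerase epsilon, by 2.43 and 2.08. Pola2, the accessory subunit of polymerase alpha, differed by 0.42 (adjusted p 0.0219) and 0.07 (adjusted p 0.702). Pold1, the catalytic subunit of polymerase delta, differed by 0.07 (adjusted p 0.695) and 0.40 (adjusted p 0.0289), and its deficient value became -0.13 with quantile normalization. The primase subunits Prim1 and Prim2 differed by 1.77 and 1.04 in wild-type and by 1.97 and 0.95 in deficient cells. The other probe of Prim2 gave larger but less precise differences, 2.10 in wild-type and 2.53 in deficient cells (SE 0.83 for both). The wild-type call of Pola2 was lost without array 2 or 5 of slide 1 or array 3 of slide 2, with adjusted p between 0.055 and 0.078, and the deficient call of Pold1 was lost without array 10, 11 or 12 of slide 1 or array 2 or 3 of slide 2, with adjusted p between 0.052 and 0.10.

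The clamp Pcna, the ring that holds polymerases on DNA, and the 3 clamp loader subunits were all higher on slide 2, from 1.51 (Rfc3) to 2.55 (Rfc4) in wild-type and from 1.54 (Rfc3) to 2.82 (Rfc4) in deficient cells. Fen1 and Lig1, which trim and seal Okazaki fragments, differed by 2.05 and 2.35 in wild-type and by 2.10 and 2.33 in deficient cells. Rpa2, a subunit of the single-strand binding complex, differed by 1.54 in both genotypes. Of the regulators of S phase entry, the transcription factor E2f1 differed by 1.36 and 1.46 and Ccne1 (cyclin E1) by 2.71 and 2.09. Uhrf1, which brings the maintenance DNA methyltransferase to new DNA (chromosome 17, 56462770 to 56462829), lay between 1.83 and 2.68 on wild-type and between 1.98 and 3.06 on deficient arrays of slide 1, and between 5.88 and 6.04 and between 5.95 and 6.08 on slide 2. Its slides did not overlap, and it differed by 3.59 (SE 0.20, adjusted p 1.3e-09; 12.1-fold) and 3.47 (SE 0.20, adjusted p 1.46e-09; 11.1-fold). The chromatin assembly subunits Chaf1a and Chaf1b differed by 2.89 and 2.02 in wild-type and by 2.48 and 2.02 in deficient cells. Slbp, which binds the end of replication-dependent histone messages, differed less, by 0.75 (adjusted p 1.6e-05) and 0.69 (adjusted p 3.04e-05).

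**Figure D2:**
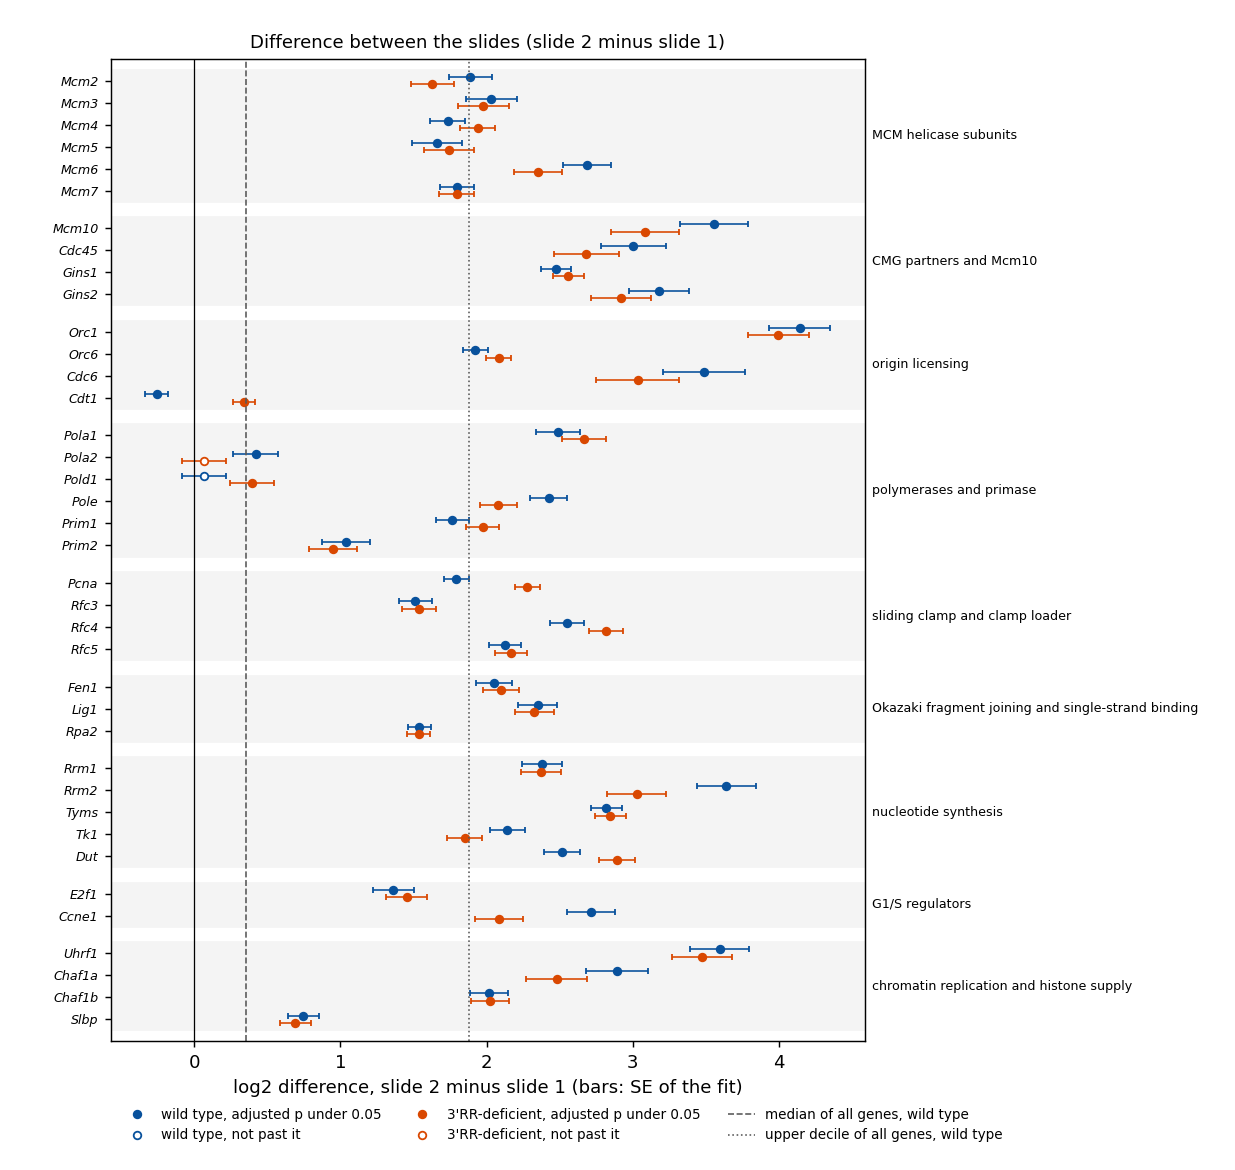
Each point is the log2 difference of 1 gene, slide 2 minus slide 1, in wild-type (blue) and deficient (orange) cells, with the SE of the fit as bars; open points did not pass an adjusted p of 0.05. In wild type 25 of 38 genes lie beyond the dotted line, which is the upper decile of all genes (1.88), and Cdt1, Pola2 and Pold1 lie near or below the dashed line, the median of all genes (0.35).

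Other genes of the same processes were followed in lists that do not contain these 38. Of 32 other replication genes (helicase loading, fork and polymerase accessory factors), 26 were higher and 2 lower on slide 2 in wild-type cells, with a median of 0.92, and 27 and 1 in deficient cells, with a median of 1.19. Of 29 other genes of nucleotide synthesis, 22 were higher and 5 lower in wild-type cells (median 1.08) and 23 and 4 in deficient cells (median 1.23). Mthfd2, a mitochondrial folate enzyme that feeds purine and thymidylate synthesis, differed by 2.95 and 3.23. Among 18 genes of fork protection and the checkpoint, 15 and 16 were higher and 1 was lower in each genotype, with medians of 1.90 and 1.88. Of 31 replication-dependent histone genes, 24 were higher and 4 lower in wild type and 27 and 3 in deficient cells, with medians of 1.20 and 1.57. The 29 mitosis genes, which act after replication is finished, were all higher on slide 2 in both genotypes, with medians of 3.29 and 2.79.

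Most markers of other cells moved with the slide in the opposite direction, with exceptions in several lists. The counts below stand against 25.2% of all genes lower and 48.7% higher on slide 2 in wild-type cells. In deficient cells these shares were 25.6% and 50.5%. All 13 measured macrophage and monocyte markers were well above background on slide 1, and 11 in wild-type and 13 in deficient cells were lower on slide 2, where 4 of them (Mertk, Vcam1, C1qa and C1qc) were not well above background on any array. The mean log2 level of this list ran from 2.03 to 3.27 over the arrays of slide 1 but only from -3.24 to -2.46 over those of slide 2. Of 11 T cell markers 9 were lower on slide 2 in each genotype and 1, Thy1, was higher, by 4.70 and 4.67. The mean log2 level of the list went from a range of 0.20 to 0.61 (slide 1) to one of -2.08 to -1.62 (slide 2), while the log2 of its summed signal went up, from 5.32 to 5.53 on slide 1 to 6.09 to 6.86 on slide 2. Of 9 erythroid markers 6 and 7 were lower, with mean levels of -1.14 to 2.16 (slide 1) and -5.32 to -2.12 (slide 2). All 5 NK cell markers were lower in both genotypes, as were 6 and 7 of 9 neutrophil markers (2 and 1 were higher) and 7 and 6 of 9 markers of plasmacytoid dendritic cells (1 and 0 were higher). Other lists went both ways: of 7 plasma cell markers 3 were higher and 2 lower in wild type and 1 and 3 in deficient cells, of 7 germinal centre markers 2 were higher and 4 lower in each genotype, and of 4 markers of pro-B and pre-B cells 1 was higher and 3 lower in each. Of 9 B cell markers, all well above background on every array, 7 were lower on slide 2 in each genotype and 1 was higher in deficient cells, with mean levels of 5.09 to 5.36 (slide 1) and 3.80 to 4.21 (slide 2). The median difference of these 9 was -1.13 in wild-type and -1.22 in deficient cells. Ms4a1 (CD20) was the exception that was higher in deficient cells. It averaged 7.70 and 7.54 on wild-type arrays of slides 1 and 2 (adjusted p 0.0725) and 7.33 and 7.71 on deficient arrays (adjusted p 0.00032). The part of the marker lists in the slide differences of the replication genes was not tested, and in bulk RNA fewer cells of a type and less RNA per cell cannot be told apart.

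Between genotypes the differences were small. Over both slides 4 of the 38 genes were higher in deficient cells and 1 was lower, where 7.64% of all genes were higher and 9.9% lower, so the share of higher genes is near the background. The median difference was 0.16, against -0.03 over all genes. Of the members' differences 29 of 38 were above 0, against 9999 of 22736 over all genes. On slide 1, 9 were higher and 2 lower (9.21% and 15.7% of all genes). On slide 2, 1 was higher and none lower (4.29% and 4.2% of all genes; at an unadjusted p under 0.05, 6 higher and 0 lower). A difference between the slides in the genotype difference was found for 2 genes, both upwards on slide 2 (10.5% of all genes, and 5.4% downwards). Scaled by the median of all probes, higher genes were 58.6% of all calls over both slides (43.6% here) and 66% on slide 2 (50.5% here), and 7 members were higher and 1 lower over both slides. Quantile normalization took that share in the test between slides from 66.1% to 49.2%, and the authors' deposited table gave 52.8% in place of 36.9% on slide 1 and 40.2% in place of 50.5% on slide 2. The fit shared 1 spread among all groups. The members' median SD within a group was 0.199 (wild type) and 0.288 (deficient) on slide 1. On slide 2 it was 0.071 and 0.0717. A fit of slide 2 alone gave more members than a fit of slide 1 alone, so which slide held more calls depended on the fit. In a fit of slide 1 alone 2 members passed, Pcna (adjusted p 0.0272) and Cdt1 (adjusted p 0.0475), both lower. For the other members a call on 1 slide and not on the other does not show that the slides differ.

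Gins1, a subunit of the GINS complex (probe on chromosome 2, 150756868 to 150756927 in mm9), was the member with the clearest genotype difference. It stood at -0.15, -0.07, 0.11 and -0.31 on wild-type arrays 2, 5, 6 and 8 of slide 1 and at 0.28, 0.49, 0.02 and 0.46 on deficient arrays 9 to 12. On slide 2 it stood at 2.41, 2.37, 2.39 and 2.32 on wild-type arrays 1, 2, 3 and 5 and at 2.83, 2.91, 2.88 and 2.88 on deficient arrays 1 to 4. On slide 1 only deficient array 11 overlapped the wild-type range, and on slide 2 the genotypes were apart. The difference was 0.46 over both slides (SE 0.07, adjusted p 0.000828; 1.37-fold), 0.42 on slide 1 (adjusted p 0.0111) and 0.50 on slide 2 (adjusted p 0.00828). All 27 alternatives kept the call over both slides, while that on slide 1 was lost in a fit of slide 1 alone (adjusted p 0.093).

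Chaf1b, the middle subunit of chromatin assembly factor 1 (chromosome 16, 93906219 to 93906278), was 1.78, 2.22, 2.56 and 2.13 on wild-type and 2.47, 2.75, 2.39 and 2.58 on deficient arrays of slide 1. On slide 2 it was 4.15, 4.23, 4.26 and 4.12 on wild-type and 4.66, 4.52, 4.52 and 4.60 on deficient arrays. The genotypes overlapped on slide 1 and not on slide 2. It rose by 0.38 over both slides (SE 0.09, adjusted p 0.0115), with nearly equal differences of 0.37 and 0.38 on the slides; a random block for slide ended the call (adjusted p 0.06). Its call on slide 1 was kept under 7 of 27 alternatives, and its other probe gave 0.19 over both slides (adjusted p 0.0738, over all probes), 0.16 on slide 1 and 0.22 on slide 2. Its partner Chaf1a, the large subunit (chromosome 17, 56206969 to 56207028), was -0.20, 0.45, 0.48 and 0.05 on wild-type and 0.67, 1.37, 0.21 and 1.14 on deficient arrays of slide 1, and between 2.95 and 3.19 and between 3.25 and 3.40 on slide 2. Array 11 again fell within the wild-type range, and the difference was 0.45 over both slides (SE 0.15, adjusted p 0.0523) and 0.65 on slide 1 (adjusted p 0.0361).

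Ccne1, the cyclin that drives entry into S phase (chromosome 7, 38882937 to 38882960), was 0.92, 1.13, 1.36 and 1.11 on wild-type and 1.78, 2.25, 1.41 and 1.92 on deficient arrays of slide 1, with no overlap. On slide 2 it was 3.90, 3.69, 3.75 and 4.02 on wild-type and 4.23, 3.73, 3.77 and 3.98 on deficient arrays, which overlapped. It rose by 0.71 on slide 1 (SE 0.16, adjusted p 0.0075), differed by 0.08 on slide 2 (adjusted p 0.828) and rose by 0.40 over both (adjusted p 0.0306), a call lost under 11 of 27 alternatives; its other probe gave 0.19 (adjusted p 0.394, over all probes). The difference between slides did not pass (-0.63, adjusted p 0.0819). Pole (chromosome 5, 110766375 to 110766434) was 2.06, 2.27, 2.41 and 2.22 on wild-type and 2.56, 3.04, 2.43 and 2.91 on deficient arrays of slide 1, and 4.65, 4.72, 4.71 and 4.59 against 4.63, 4.94, 4.89 and 4.80 on slide 2. The groups did not overlap on slide 1 and overlapped on slide 2, and it rose by 0.32 over both (SE 0.09, adjusted p 0.0232) and by 0.49 on slide 1 (adjusted p 0.0123). The other probe of Pole differed by -0.13 on slide 1, and with the mean over probes neither call held (adjusted p 0.17 and 0.33).

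Pcna (chromosome 2, 132075022 to 132075054) was the 1 member that fell over both slides, and it did so through slide 1. There it was 5.06, 5.16, 5.25 and 5.01 on wild-type and 4.61, 4.68, 4.35 and 4.70 on deficient arrays, which did not overlap. On slide 2 it was 6.91, 7.02, 6.83 and 6.91 on wild-type and 6.87, 6.91, 6.89 and 6.79 on deficient arrays, which did. It fell by 0.29 over both slides (SE 0.06, adjusted p 0.00442) and by 0.54 on slide 1 (SE 0.08, adjusted p 0.000787). Its difference on slide 2 was -0.05 (adjusted p 0.791). The slides' differences were unequal (0.48, SE 0.12, adjusted p 0.0168), a call lost with quantile normalization (adjusted p 0.083), and a random block for slide ended the call over both (adjusted p 0.14). Cdt1 (chromosome 8, 125096893 to 125096952) likewise fell on slide 1, by 0.37 (SE 0.08, adjusted p 0.00403), with values given above that did not overlap. Every deficient array of slide 2 was higher, by 0.22 (adjusted p 0.0944), and the difference between slides was 0.60 (SE 0.11, adjusted p 0.00434), which quantile normalization took to an adjusted p of 0.068.

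Mcm6, Mcm10, Rrm2 and Pola2 also passed on slide 1. Mcm6 (chromosome 1, 130228178 to 130228237) stood at 4.13, 4.50, 4.66 and 4.29 on wild-type and at 4.88, 5.37, 4.37 and 5.02 on deficient arrays of slide 1, and between 7.03 and 7.12 and between 7.23 and 7.30 on slide 2. Array 11 lay within the wild-type range of slide 1, and slide 2 had no overlap. It rose by 0.52 on slide 1 (adjusted p 0.0349) and differed by 0.18 on slide 2 (adjusted p 0.578). Mcm10 and Rrm2, with values given above, rose by 0.68 (adjusted p 0.0436) and 0.61 (adjusted p 0.041) on slide 1, and on slide 2 they differed by 0.21 and 0.00. Pola2 (chromosome 19, 5946484 to 5946543) stood at -1.63, -1.36, -1.02 and -0.96 on wild-type and at -0.76, -1.01, -0.90 and -0.49 on deficient arrays of slide 1, and between -0.99 and -0.57 and between -0.86 and -0.61 on slide 2. The groups overlapped on both slides, and it rose by 0.45 on slide 1 (adjusted p 0.0437). These calls lie close to the threshold: of 27 alternatives Mcm6 kept its call under 19, Mcm10 and Rrm2 under 12 and Pola2 under 10.

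**Figure D3:**
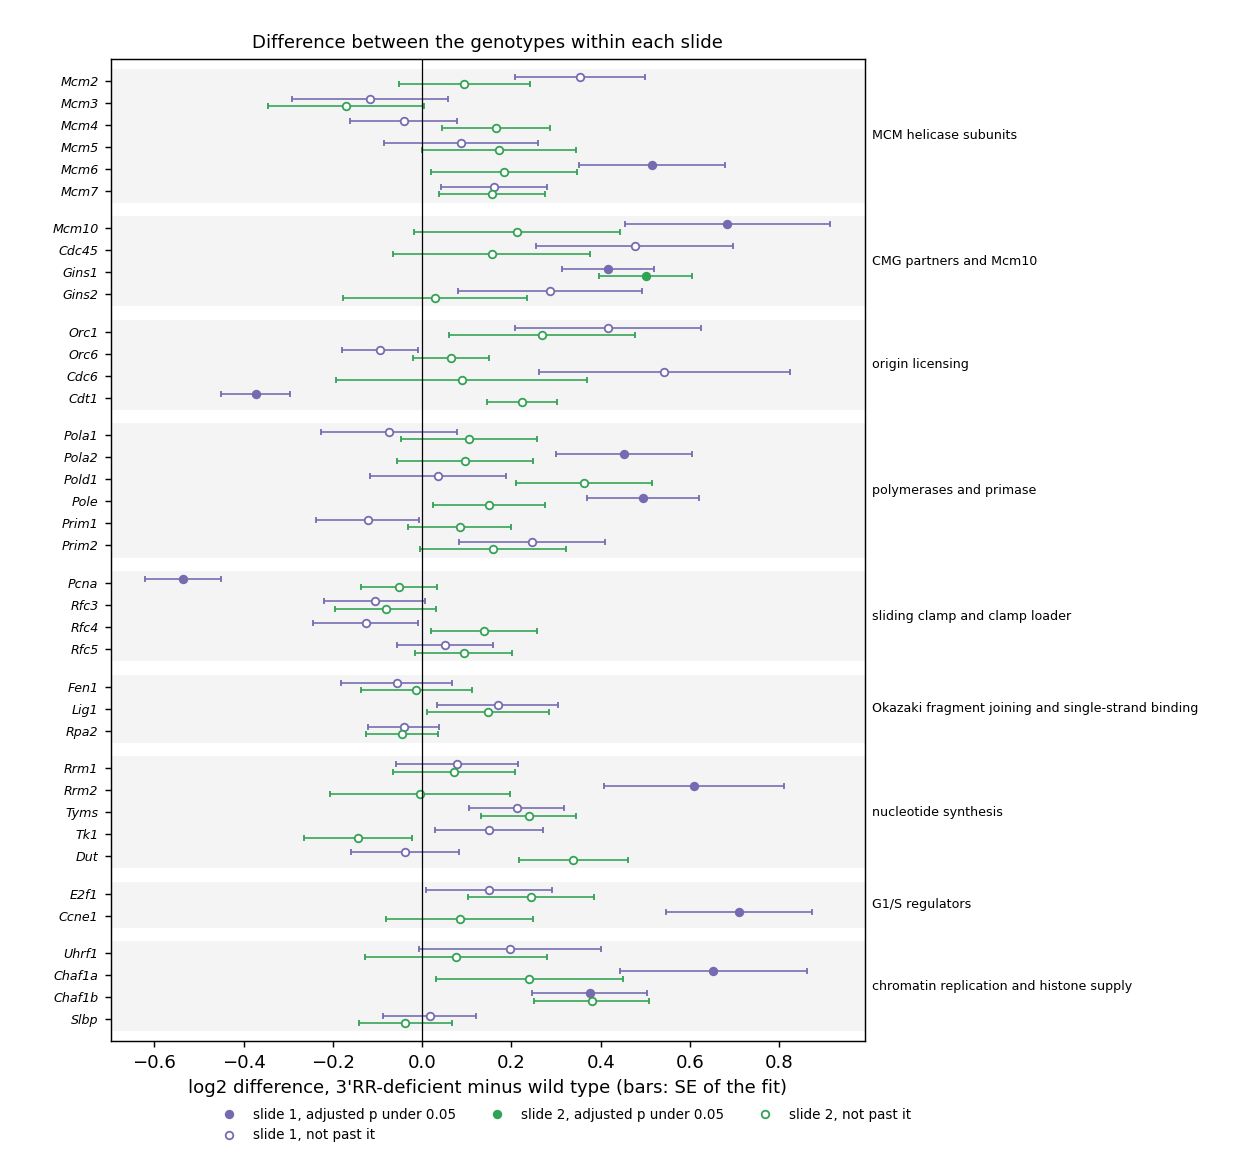
Each point is the log2 difference of 1 gene, deficient minus wild type, on slide 1 (purple) and slide 2 (green), with the SE of the fit as bars; filled points passed an adjusted p of 0.05. Slide 1 has 11 filled points from -0.54 (Pcna) to 0.71 (Ccne1), slide 2 has 1 (Gins1, 0.50), and the axis spans a far smaller range than the slide differences. These counts are those of the fit that shares 1 spread among all groups, and they change when each slide is fitted alone.

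On their brightest probe the remaining members did not pass in any genotype comparison. Among the helicase subunits, differences over both slides ran from -0.14 (Mcm3) to 0.35 (Mcm6), and a second probe of Mcm3 gave 0.37 over both slides (adjusted p 0.032, over all probes) and 0.59 on slide 2 (adjusted p 0.0315) where the brighter one gave -0.17 on slide 2. Cdc45 and Gins2 differed by 0.32 and 0.16, Orc1, Cdc6 and Orc6 by 0.34, 0.32 and -0.01, and the clamp loader genes by -0.09 (Rfc3) to 0.07 (Rfc5). Fen1, Rpa2 and Lig1 differed by -0.03, -0.04 and 0.16. Among nucleotide genes Tyms differed by 0.23 (adjusted p 0.055), Dut by 0.15, Rrm1 by 0.07 and Tk1 by 0.00.

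On slide 1 the same arrays were often the lowest or highest of their group for the members. How often these arrays were so over all genes was not counted. The pattern is therefore not shown to be particular to these genes. Of the 38, deficient array 11 was the lowest of its group for 34 and deficient array 10 the highest for 24, and wild-type array 2 was the lowest for 29 and array 6 the highest for 28. The same arrays led the 29 mitosis genes: array 11 was lowest for 27, array 10 highest for 23, array 2 lowest for 23 and array 6 highest for 25. The median of the members relative to each gene's mean over all arrays was -1.43, -1.09, -0.93 and -1.17 on wild-type arrays 2, 5, 6 and 8 and -1.08, -0.74, -1.32 and -0.87 on deficient arrays 9, 10, 11 and 12. On slide 2 the same median lay between 1.03 and 1.07 on wild-type and between 1.09 and 1.20 on deficient arrays. The median SD of a member within its group was 0.199 and 0.288 in wild-type and deficient cells on slide 1 and 0.071 and 0.0717 on slide 2, while over all genes it was 0.213, 0.203, 0.152 and 0.137. Counts of calls moved with single arrays. Without deficient array 11 of slide 1, 15 members passed over both slides (14 higher) and 16 on slide 1 (14 higher), and 6 passed the test between slides, 2 upwards and 4 downwards. On slide 1, where 11 passed with all arrays, 5 did so without deficient array 12 or wild-type array 2 of that slide, 6 without deficient array 9 or 10 or wild-type array 8, and 7 without deficient array 2 or 4 or wild-type array 1 or 2 of slide 2. On slide 2, 2 members passed in place of 1 without deficient array 9 or 11 or wild-type array 2 or 6 of slide 1. Pcna and Cdt1 were the 2 lower members of slide 1 in each of these.

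**Figure D4:**
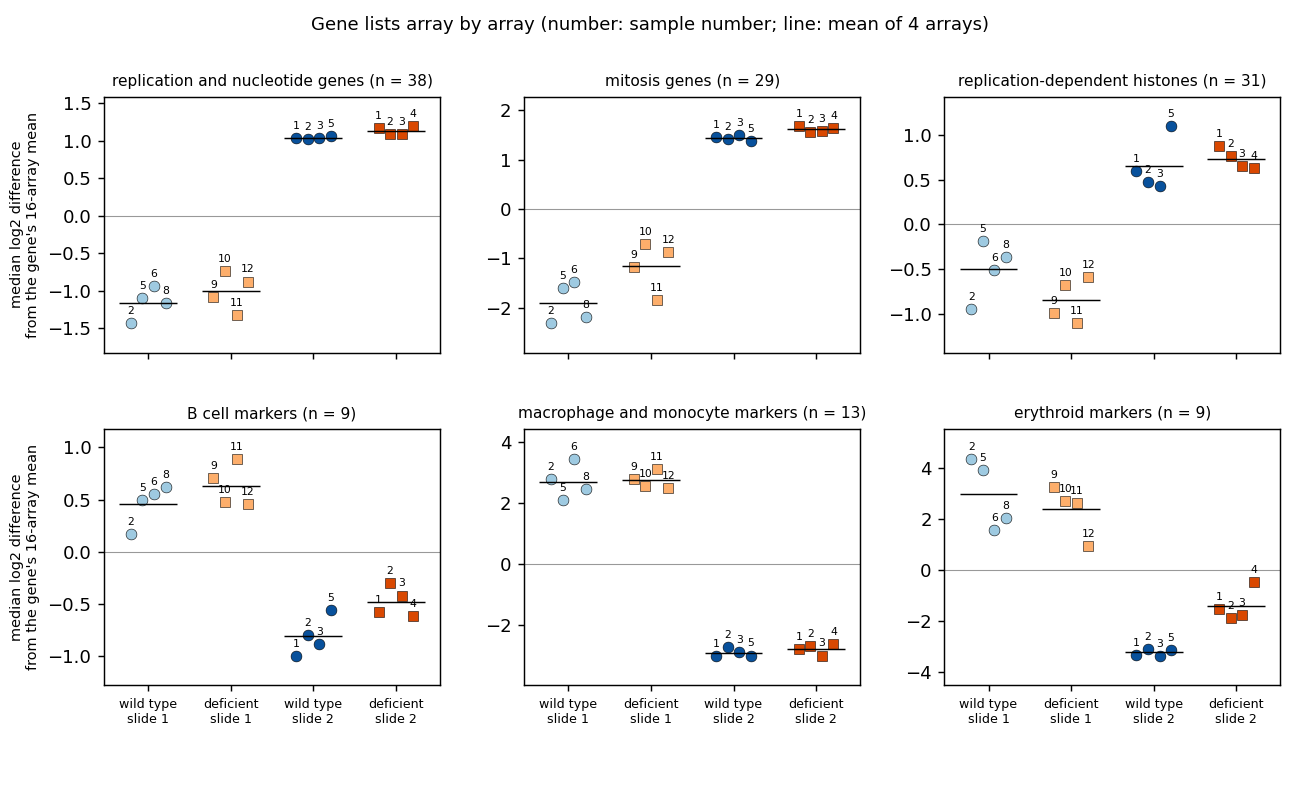
Each point is 1 array with its sample number; the vertical axis is the median over a list of the log2 value minus the gene's mean over 16 arrays, and the line is the mean of 4 arrays. The replication and mitosis genes share their order of arrays on slide 1 (arrays 2 and 11 low, 6 and 10 high) and lie tightly on slide 2, and the B cell, macrophage and erythroid markers are lower on slide 2.

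The neighbouring lists differed between genotypes in their own ways, and some lay near the shares of all genes. Over both slides 7.64% of all genes were higher and 9.9% lower, with 9.21% and 15.7% on slide 1 and 4.29% and 4.2% on slide 2. Of the 29 mitosis genes 11 rose over both slides (median 0.44), with 16 on slide 1 (median 0.75) and 1 on slide 2 (median 0.14). Nusap1, Spc25 and Ube2c, which act at the spindle, the kinetochore and in cyclin destruction, rose by 0.85, 0.67 and 0.63. Of the 31 histone genes 3 fell over both slides, and 11 fell on slide 1 (median -0.40): Hist1h1c, a linker histone, fell by 0.81, Hist1h3c by 0.37 and Hist1h4d by 0.36. Hist1h4d kept its call under 9 of 27 alternatives, with -0.70 on slide 1 and -0.02 on slide 2. Of the other replication genes 1 rose (Dbf4, the activator of the origin-firing kinase, by 0.37) and 2 fell (Mcm8, a helicase of recombination repair, by 0.33 and Pole4, a small polymerase epsilon subunit, by 0.26). Dbf4 kept its call under 10 of 27 alternatives and Mcm8 under 18. On slide 1 this list of 32 had 2 higher and 7 lower genes, which is near the shares of all genes. Its median there was -0.08, the same as over all genes.
Of the other nucleotide genes 4 rose and 2 fell; Mthfd2 and Shmt2 rose by 0.48 and 0.33, and Dhodh and Ppat, which make pyrimidines and purines, fell by 0.19 and 0.13. These falls lay on slide 1 (-0.56 and -0.43), while slide 2 had differences of 0.18 and 0.17 that did not pass, and Ppat kept its call over both slides under 9 of 27 alternatives. On slide 1 this list of 29 had 2 higher and 7 lower genes, where 9.21% of all genes were higher and 15.7% lower. On slide 2 it had 4 higher and none lower (1 lower at an unadjusted p under 0.05), where 4.29% and 4.2% of all genes were. Of 26 other genes of entry into S phase 5 rose and 2 fell: the transcription factor Mybl2 rose by 0.52, the pocket protein Rbl1 by 0.33 and E2f4 by 0.30, and Rb1 and E2f6 fell by 0.27 and 0.25. Of the fork and checkpoint genes Clspn, Fancd2 and Brca2 rose by 0.56, 0.54 and 0.27. Marker lists moved as well on slide 1, where most of the members' calls lay in the fit with a shared spread. Of 7 plasma cell markers 3 were higher and 1 lower in deficient cells there. Mean levels of that list lay between 1.40 and 2.74 on deficient and between 1.02 and 1.61 on wild-type arrays. Of 9 neutrophil markers 2 were higher. On slide 2, 4 of the plasma cell markers were lower and none was higher (none either at an unadjusted p under 0.05). Of 9 erythroid markers 3 were higher there and none lower. Their mean levels lay between -3.72 and -2.12 on deficient and between -5.32 and -5.15 on wild-type arrays. Of 11 T cell markers 3 were higher on slide 2 and none lower (1 lower at an unadjusted p under 0.05). Of 9 B cell markers 1 was higher, and of 5 NK cell markers 1 was lower. Of 4 markers of pro-B and pre-B cells 3 fell in deficient cells over both slides (log2 differences of -0.48 for Vpreb1, -0.86 for Il7r and -0.55 for Myb), 2 fell on slide 1 and 3 on slide 2. Of 9 B cell and 11 T cell markers 2 each were lower on slide 1. Their part in the genotype differences was not tested.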

How the data were processed

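B220-selected splenic B cells were measured on 16 arrays, 4 for each genotype on each slide. Spot intensities are the authors' deposited scanner output, extracted per the file headers with Agilent Feature Extraction 10.7.3.1, background-subtracted and detrended within the array and not scaled between arrays. The authors also deposited a table of log2 values, scaled by slide, which served as an alternative within slides; how it was made is not given in the sources used here. Its columns follow the samples' labels, and the submitters' processing notes name limma for slide 2.

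From the processed intensity, log2 minus the array's 75th percentile over non-control spots was computed, and spots of a probe were averaged. Probes had to be well above background on 4 or more of the 16 arrays, and the brightest probe stood for a gene. The 75th percentile ranged from 576 to 851 (slide 1) and from 596 to 990 (slide 2). A limma 3.58.1 fit (R 4.3.3) of 4 group means on 22736 genes gave every difference, SE and p, adjusted by Benjamini-Hochberg over all genes and called under 0.05. Genotype differences are signed deficient minus wild type, slide differences slide 2 minus slide 1. The fit was checked on simulated data.

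The genes, the lists and the rule for named genes were chosen with earlier results of these data known. The rule named members past the threshold in a genotype comparison, by size over both slides and at most 12, the 6 with the largest slide difference, and of each other list at most 3 genes in each direction; values of single genes that the rule or the marker lists hold are in part not reported here. Same-numbered samples of slide 2 had deviations correlated by 0.0116, 0.121 and 0.0692, and those of wild type across slides by 0.0251 and 0.0582. Samples of different numbers were not compared in this way, so these values do not decide whether numbers mark pairs. The main fit did not take numbers as pairs, and a block for the number was an alternative. Alternatives were other scalings, filters, background correction, probe rules, slide blocks and leaving out each array.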

Additional observations from a re-analysis of the deposited data

Results flagged for a closer look

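Some single arrays of slide 2 stood away from the other 3 of their group in 6 of the 152 gene and group combinations looked at; chance gives about 1 in 20. Deficient array 1 was high for Mcm4 (6.28, others 6.16 to 6.18), Mcm10 (4.43, others 4.23 to 4.26) and Rfc5 (5.22, others 5.08 to 5.10). Wild-type array 5 was high for Mcm7 (6.12, others 5.84 to 5.88) and Tk1 (4.86, others 4.49 to 4.54) and low for Prim2 (-1.004, others -0.50 to -0.43). Leaving out either array kept the slide calls of these genes.

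The genotype difference was not the same on both slides for 7 named genes by limma's test of the difference itself, slide 2 minus slide 1. In this test 10.5% of all genes passed upwards and 5.4% downwards. It was 0.60 for Cdt1 (adjusted p 0.00434) and 0.48 for Pcna (adjusted p 0.0168). Among genes of the other lists it was 0.52 for Pole4 (adjusted p 0.00361), 0.74 for Dhodh (adjusted p 0.000169), 0.59 for Ppat (adjusted p 0.000875), 0.51 for E2f6 (adjusted p 0.00997) and 0.53 for Hist1h3c (adjusted p 0.0257), all of them lower in deficient cells on slide 1. These list genes were named for a fall over both slides, so a fall on at least 1 slide follows from how they were named. The calls of Cdt1 and Pcna were lost with quantile normalization, and that of Hist1h3c under 5 alternatives. Within a slide genotype also goes with the row of the slide, and the rows were exchanged between slides, so row and slide cannot be told apart in these differences.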

How the results depend on the processing

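The count and direction of the slide differences changed little, apart from the single genes named here and the weak calls of Pola2 in wild type (lost under 6 of 26 alternatives) and Pold1 in deficient cells (lost or turned under 7 of 25): leaving out single arrays gave 36 to 37 members past the threshold in each genotype, with medians of 2.07 to 2.19 in wild-type and 2.02 to 2.22 in deficient cells. Their size followed the scaling: with the median of all probes the medians were 1.75 and 1.80, with quantile normalization 1.93 and 1.71, while the median of all genes moved from 0.35 and 0.40 to -0.03 and 0.11, and to 0.17 and 0.17. Genotype counts were less stable. Over both slides (5 members) the count was 8 with median scaling, 8 among genes above background on all 16 arrays, 8 with array weights, 3 with the mean over probes and 1 when slide was a random block; leaving out single arrays gave 4 to 15. On slide 1 (11 members) it was 5 without the filter, 2 with the slide fitted alone, 3 in the authors' table, and 5 to 16 without single arrays. On slide 2 (1 member) it was 6 with array weights, 5 with the slide fitted alone, 5 in the authors' table, and 1 to 2 without single arrays. The test between slides (2 members) gave 1 with quantile normalization, 4 with array weights and 2 to 6 without single arrays. With the replicate number as a block, 2 members passed on slide 2 and 34 were higher between the slides in wild type (median 2.27), where Cdt1, Pola2 and Prim2 no longer passed.

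Directions turned for Cdt1 (-0.16) and Pold1 (-0.13) between slides in deficient cells with quantile normalization, for Pole4 (-0.047) and Dhodh (-0.11) between slides in wild type with median scaling, and, with the mean over probes, for Dhodh (-0.10) in the same comparison and Ppat (0.016) over both slides. The cause was not tested. Orc1 was not above background on 2 arrays of slide 1, and Ccne2 was too dim to be measured.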
